A study of Homo sapiens with 60 samples.

Results

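The human mitochondrial genome carries 37 genes, and the RNA of these genes was measured by RNA-seq in HT29, a line of cells from a human colorectal adenocarcinoma, 24 h after herbal extracts were added. The members were all genes of the mitochondrial chromosome among the 60675 gene identifiers of the deposited table, taken by the symbols that begin with MT- in GENCODE release 29. They were 13 mRNA genes, 2 rRNA genes and 22 tRNA genes. Nuclear copies of mitochondrial sequence, such as MTATP6P1, were not members.

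The 60 libraries fell into 22 groups. Water extracts of Palmul-tang and of Sibjeondaebo-tang, each a formula of several herbs, were given at 500, 100 and 20 µg/mL. Ethanol extracts of Poria Cocos, Atractylodis Rhizoma and Panax Ginseng (Poria, Atractylodes and Ginseng below) were given at the same doses, and an ethanol extract of Glycyrrhizae Radix (Glycyrrhiza, licorice) at 350, 70 and 14 µg/mL. Each of these 6 extracts had 3 libraries per dose. An ethanol extract of Angelicae Gigantis Radix (Angelica) had 1 library at each of 320, 64 and 12.8 µg/mL, so its values stand without a test. Vehicle, HT29 cells with 0.1% DMSO by the labels and 2% by the series text, had 3 libraries. The series text sets the doses of an extract by its IC20 where that lay below 500 µg/mL, which makes the high doses of Glycyrrhiza and Angelica the IC20 of each. No label ties the replicates of a group to separate cultures, so the p-values reflect how far these particular libraries differ among themselves, and that spread may be technical only.

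Library totals ran from 19.31 to 29.62 M counts, and the 3 vehicle libraries lay near the lower end at 19.79 to 20.88 M. By the sample names both water extracts belong to set 8, Poria to set 9 with Atractylodes, Ginseng to set 10 with Glycyrrhiza, and Angelica to set 11; the names of vehicle carry none, and all 60 titles name the same batch, C. A difference from vehicle therefore cannot be told apart from a difference between sets, while high and low doses of the same extract share a set. All 13 markers of colonic epithelium passed the filter on low counts, with the keratin KRT8 at a median of 6870 and the adhesion protein EPCAM at 545 CPM (counts scaled to a common library total). Others of that list were low, with medians of 0.905 CPM for CDX1, 3.75 for GPA33, 4.59 for CDX2 and 7.01 for CEACAM5. Of 8 fibroblast markers 2 passed. COL1A1 had a median of 1.34 CPM, and PDGFRA had at most 1 count in any library. Of 8 leukocyte markers 4 passed, LYZ at a median of 1480 CPM, while PTPRC had at most 2 counts and HLA-DRA 0. Low dose Poria library 1 stood apart in MT-ATP8, MT-ND4L and MT-ND6, and values that rest on it are marked.

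Mitochondrial DNA is copied into RNA by its own polymerase, POLRMT, with the DNA-binding protein TFAM, and each strand gives a transcript that spans nearly the whole circle. These transcripts are then released as rRNAs, mRNAs and tRNAs by processing at the tRNAs that lie between the other genes. The mRNAs encode subunits of respiratory complexes I, III and IV and of the ATP synthase, complex V, all other subunits being encoded in the nucleus, and the rRNAs form the mitochondrial ribosome that translates them. The level of a mitochondrial RNA depends on the number of genome copies, on transcription and on decay.

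The strand of origin divides the members: 12 mRNAs, both rRNAs and 14 tRNAs are transcribed from the heavy strand as template, and MT-ND6 with 8 tRNAs from the light strand. The start of MT-ND6 (chrM:14614-14673, minus strand) is shown beside that of its neighbour MT-ND5 (chrM:12337-12396, plus strand), since the difference in base composition that comes with the strand can be read from them, with the start codon in capitals. All sequences are from the GENCODE release 29 transcripts on GRCh38, 5′ to 3′.
MT-ND6: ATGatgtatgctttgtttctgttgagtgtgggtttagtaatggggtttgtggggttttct
MT-ND5: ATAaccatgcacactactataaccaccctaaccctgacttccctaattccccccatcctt
Over its 525 bases MT-ND6 was 35.6% G and 7.05% C, against 6.28% (MT-ATP8) to 16.2% G (MT-CO1) in the 12 heavy strand mRNAs. For 6 of the 13 mRNA genes the annotated length is no multiple of 3, with 2 bases over in MT-ND1 and 1 base over in MT-ND2, MT-CO3, MT-ND3, MT-ND4 and MT-CYB. Their stop codons are known to be completed by the poly(A) tail.

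Among the genes of the heavy strand transcript MT-ATP6 and MT-CO3 share only the base chrM:9207. A longer overlap joins 2 other pairs. The end of MT-ATP8 (chrM:8507-8572, plus strand) and the start of MT-ATP6 (chrM:8527-8592, plus strand) share 46 bases, chrM:8527-8572, shown in capitals.
MT-ATP8 3′ end: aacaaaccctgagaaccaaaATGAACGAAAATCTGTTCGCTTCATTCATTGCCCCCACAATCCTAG
MT-ATP6 5′ end: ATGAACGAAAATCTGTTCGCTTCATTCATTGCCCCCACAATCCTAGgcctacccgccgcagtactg
The end of MT-ND4L (chrM:10740-10766, plus strand) and the start of MT-ND4 (chrM:10760-10786, plus strand) share the 7 bases in capitals.
MT-ND4L 3′ end: cataacctaaacctactccaATGCTAA
MT-ND4 5′ end: ATGCTAAaactaatcgtcccaacaatt
Each of the 2 pairs shown is known to be carried on a shared bicistronic mRNA, and the 100 bp reads are longer than either overlap. The counts of MT-ATP8 and MT-ND4L were whole in all 60 libraries, so no count was seen to be split within either pair. How read pairs that span both genes were treated is not stated in any source used here. MT-ATP8 and MT-ND4L are also the shortest mRNA genes, at 207 and 297 bases.

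Transfer RNAs were almost absent from these libraries. Of the 22 tRNA genes, 16 had no count in any of 60 libraries, and 6 had 26 counts in all, never more than 1 in a library. MT-TA, the alanine tRNA, had 15 of them, MT-TE (glutamate) 5, MT-TQ (glutamine) and MT-TN (asparagine) 2 each, and MT-TY (tyrosine) and MT-TS1 (serine) 1 each. All 26 counts fell on tRNA genes copied from the light strand and 0 on the 14 copied from the heavy strand. The tRNA genes are 59 to 75 bases long, shorter than the 100 bp reads, and none was tested. The counts below therefore concern 15 tested members, the 13 mRNAs and 2 rRNAs, which all passed the filter on low counts. MT-RNR1 (ENSG00000211459) lies at chrM:648-1601 and MT-RNR2 (ENSG00000210082) at chrM:1671-3229 on the plus strand, MT-CO2 (ENSG00000198712) at chrM:7586-8269 on the plus strand and MT-ND6 (ENSG00000198695) at chrM:14149-14673 on the minus strand (GRCh38), and none of the 37 has an intron.

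Per length, the mRNAs of complex IV stood highest and MT-ND6 lowest. Levels in CPM per kb of gene, averaged over 60 libraries, were 13200 for MT-CO3, 10300 for MT-CO1 and 9520 for MT-CO2, the catalytic core subunits of cytochrome c oxidase. MT-ATP6, the proton channel subunit of the ATP synthase, followed at 7320, then the complex I subunit MT-ND4 at 5460 and MT-CYB, cytochrome b of complex III, at 5230. The remaining complex I subunits MT-ND4L, MT-ND3, MT-ND1, MT-ND2 and MT-ND5 lay at 3640, 3540, 3250, 3200 and 1610, MT-ATP8, an accessory ATP synthase subunit, at 1470, and MT-ND6, also of complex I, at 382. The highest level was 34.4 times the lowest. The order in vehicle alone was different in places. There MT-CO2 (14200) was above MT-CO1 (13500), MT-ND3, MT-ND1 and MT-ND2 (5080, 4780 and 4450) were above MT-ND4L (3810), and MT-ATP8 (2230) was above MT-ND5 (2120), as means of 3 libraries.

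Several neighbours in the order over 60 libraries were not separated by their spread over libraries. MT-ND1 was above MT-ND2 in 31 of 60 libraries, MT-ND4L above MT-ND3 in 36, MT-ND4 above MT-CYB in 44 and MT-ND5 above MT-ATP8 in 45. MT-ATP6 was above MT-ND4, MT-ND2 above MT-ND5 and MT-ATP8 above MT-ND6 in 60 of 60. The places of the short genes depend on how length is counted. With 200 bases taken off each length, the rank of 11 of the 13 mRNAs changed. That setting leaves almost nothing of the 207 bases of MT-ATP8, which inflates its level per length and can shift the ranks of others. The count of 11 is therefore no measure of how stable the order is.

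**Figure D1:**
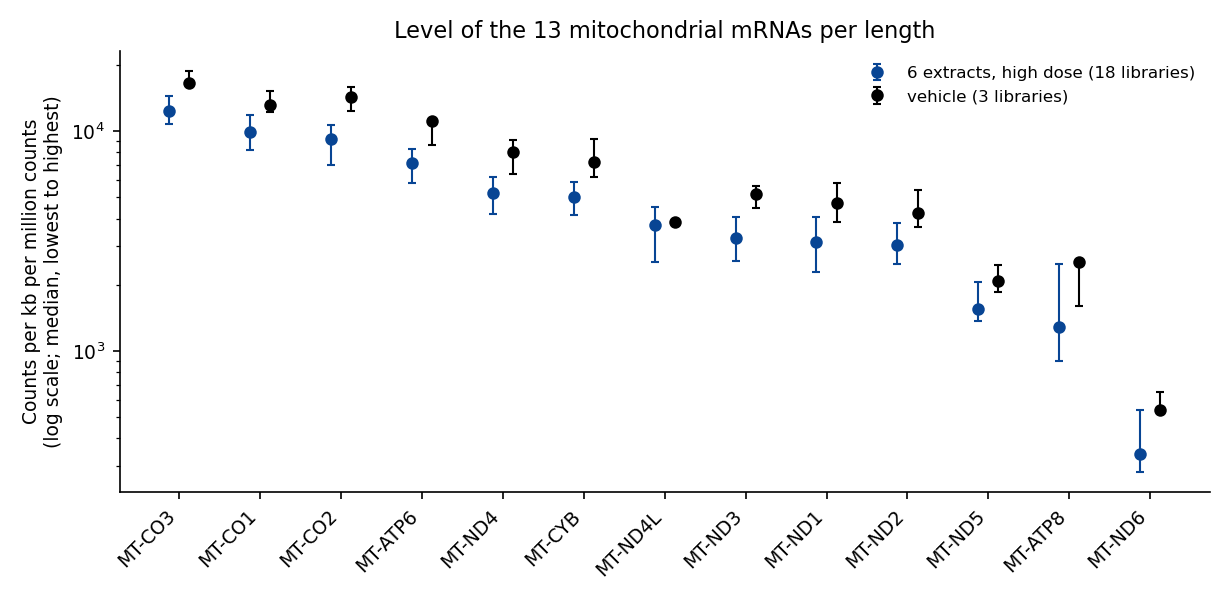
Level of each mitochondrial mRNA in CPM per kb of gene, on a log axis, in order of the mean over 60 libraries. Points are medians and bars run from the lowest to the highest library, for the high dose of 6 extracts (18 libraries, blue) and vehicle (3 libraries, black). MT-ND6 lies lowest in both groups, with medians of 340 and 537.

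The first comparison asks how much of the RNA was mitochondrial. The 37 members held 6.52% to 10.1% of all counts, with a median of 7.49%, in the 54 libraries of the 6 extracts, against 8.91%, 10.2% and 11.6% in the vehicle libraries. Of the 54 treated libraries 51 lay below the lowest vehicle library. The 3 others were Poria low dose library 1 at 9.71%, a Ginseng medium dose library at 10.1% and a Ginseng low dose library at 9.39%. Angelica gave 7.58%, 8.12% and 6.55% at the low, medium and high dose.

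This share did not follow dose. Its mean was 7.59% ± 0.915 at the low, 7.61% ± 0.926 at the medium and 7.47% ± 0.551 at the high dose (SD, n = 18 libraries each), and the ranges overlapped. By extract, over all doses, the mean ran from 7.07% ± 0.418 with Palmul-tang to 8.26% ± 0.938 with Ginseng (SD, n = 9 each). The 8 treated libraries no deeper than the deepest vehicle library held 6.83% to 9.39%, and the 46 deeper ones 6.52% to 10.1%. Since these are bulk samples, fewer cells of a type and less RNA per cell cannot be told apart, and a share also falls when other RNA rises.

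**Figure D2:**
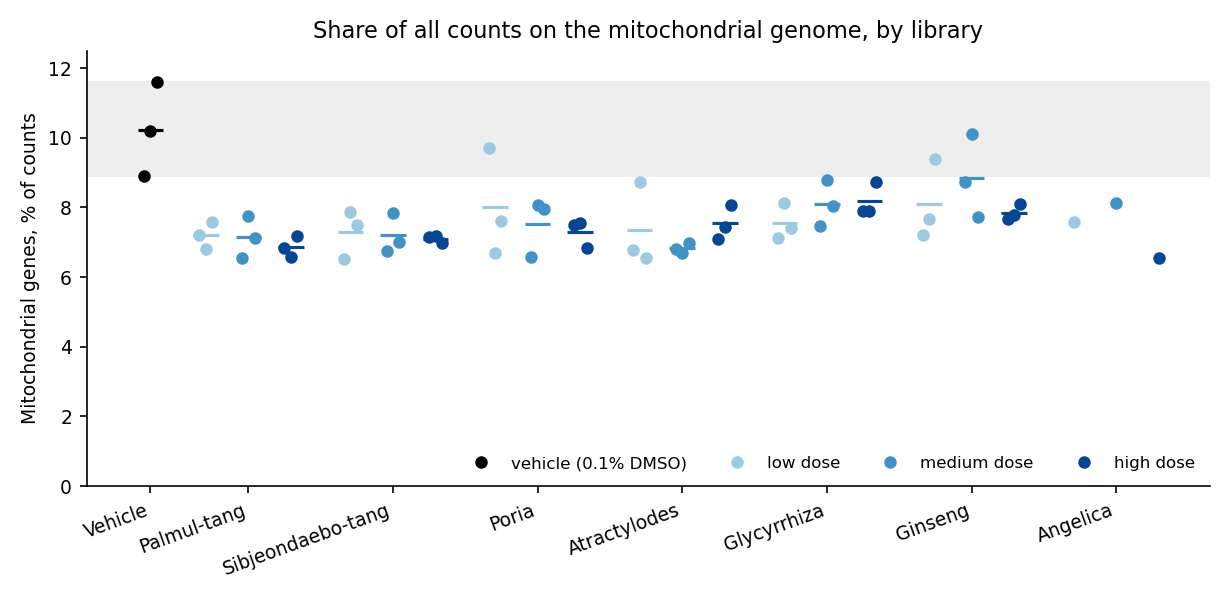
Percent of each library's counts that fell on the 37 mitochondrial genes, with vehicle at the left and then each extract from low to high dose. Points are libraries, short lines are means of 3, the grey band is the range of the 3 vehicle libraries, and 51 of 54 libraries of the 6 extracts lie below it.

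Each member was then tested across all genes, with the 6 extracts pooled, against vehicle. At the low dose 12 of 15 members were lower and 0 higher, where 13.9% of all 16445 tested genes were called lower (edgeR, adjusted p below 0.05). At the medium dose 13 were lower and 0 higher, where 13.1% of all genes were lower. At the high dose 13 were lower and 0 higher, where 15.8% of all genes were lower and 17.3% higher. The median log2 fold change of the 15 members was -0.57, -0.56 and -0.56 at the low, medium and high dose, against 0, 0 and -0.01 over all tested genes. These comparisons share the same 3 vehicle libraries. Without vehicle library 3, which had the highest mitochondrial share, 9, 8 and 9 members were called at the low, medium and high dose. The share of all genes called in that setting is not given here.

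MT-CO2, a copper-binding subunit of complex IV, had the smallest p. Its level in CPM, here and below scaled by TMM factors over tested genes, was 4720, 6290 and 7490 at the high dose as the lowest, median and highest of 18 libraries, against 8600, 10100 and 11400 CPM in the vehicle libraries. No high dose library reached a vehicle library, and MT-CO2 fell by 0.65 ± 0.09 on the log2 scale (SE; edgeR adjusted p = 7.5e-08). MT-CO1 fell by 0.48 ± 0.07 and MT-CO3 by 0.50 ± 0.10, again without overlap.

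In complex I, MT-ND3 fell by 0.69 ± 0.12, MT-ND1 by 0.65 ± 0.15, MT-ND4 by 0.59 ± 0.11, MT-ND2 by 0.56 ± 0.13 and MT-ND5 by 0.49 ± 0.10 on the log2 scale (SE). MT-CYB fell by 0.63 ± 0.10 and MT-ATP6 by 0.56 ± 0.13. Among these the high dose and vehicle libraries overlapped for MT-ND1, MT-ND2 and MT-ND5. Without vehicle library 3 the difference of MT-ND2 was -0.38 (edgeR adjusted p = 0.08).

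MT-ATP8 had the largest fold change at the high dose. It was at 191, 267 and 516 CPM as the lowest, median and highest of 18 libraries, against 338, 546 and 549 CPM in vehicle. The groups overlapped, and MT-ATP8 fell by 0.79 ± 0.27 on the log2 scale (SE; edgeR adjusted p = 0.022). Leaving out vehicle library 2 gave -0.68 (adjusted p = 0.13) and leaving out vehicle library 3 gave -0.68 (adjusted p = 0.15). At the low dose the difference was -0.54 (adjusted p = 0.15). Without Poria low dose library 1 it was -0.75 (edgeR adjusted p = 0.0063), so the lack of a call there rests on that library.

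MT-ND4L, a small complex I subunit next to MT-ND4, did not pass the test. Its level was 774, 1110 and 1340 CPM as the lowest, median and highest at the high dose, against 1140, 1160 and 1200 CPM in the vehicle libraries, so that the treated range enclosed the vehicle range. The log2 difference was -0.11 ± 0.14 (SE; 95% interval -0.38 to 0.16; edgeR adjusted p = 0.58). Per length, MT-ND4L was at 0.412 to 0.823 of MT-ND4 in the high dose libraries, with a median of 0.717, against 0.424, 0.466 and 0.606 in vehicle. Of the 54 treated libraries 47 lay above the highest vehicle library in this ratio, 6 within the vehicle range and 1 below it.

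For the rRNAs the fold changes were smaller than for 12 of the 13 mRNAs; the difference between members was not tested. MT-RNR1, the small subunit rRNA, was at 1360, 1710 and 2780 CPM as the lowest, median and highest at the high dose, against 1680, 1940 and 2020 CPM in vehicle, a log2 difference of -0.10 ± 0.10 (SE; edgeR adjusted p = 0.51). MT-RNR2, the large subunit rRNA, was at 9090, 11000 and 17300 CPM against 12100, 13800 and 15700 CPM in vehicle, and fell by 0.26 ± 0.08 (adjusted p = 0.0083). Without vehicle library 3 its difference was -0.16 (adjusted p = 0.23). Both ranges at the high dose enclosed those of vehicle, and the upper ends were Glycyrrhiza libraries. With the other extracts the highest library held 1870 CPM of MT-RNR1 and 12200 CPM of MT-RNR2. Against vehicle the log2 differences were 0.41 and 0.26 with Glycyrrhiza. With the other extracts they ran from -0.13 to -0.25 for MT-RNR1 and from -0.3 to -0.44 for MT-RNR2.

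Within the mitochondrial counts, the rRNA share was higher with extract. It was 14.9% to 23.8%, with a median of 17.6%, in the 54 treated libraries, against 14.6%, 15.0% and 15.2% in vehicle. Of the treated libraries 52 lay above the vehicle range and 2 within it. The ratio of MT-RNR2 to MT-RNR1 counts was below the vehicle range in 43 of 54 treated libraries, within it in 10 and above it in 1.

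**Figure D3:**
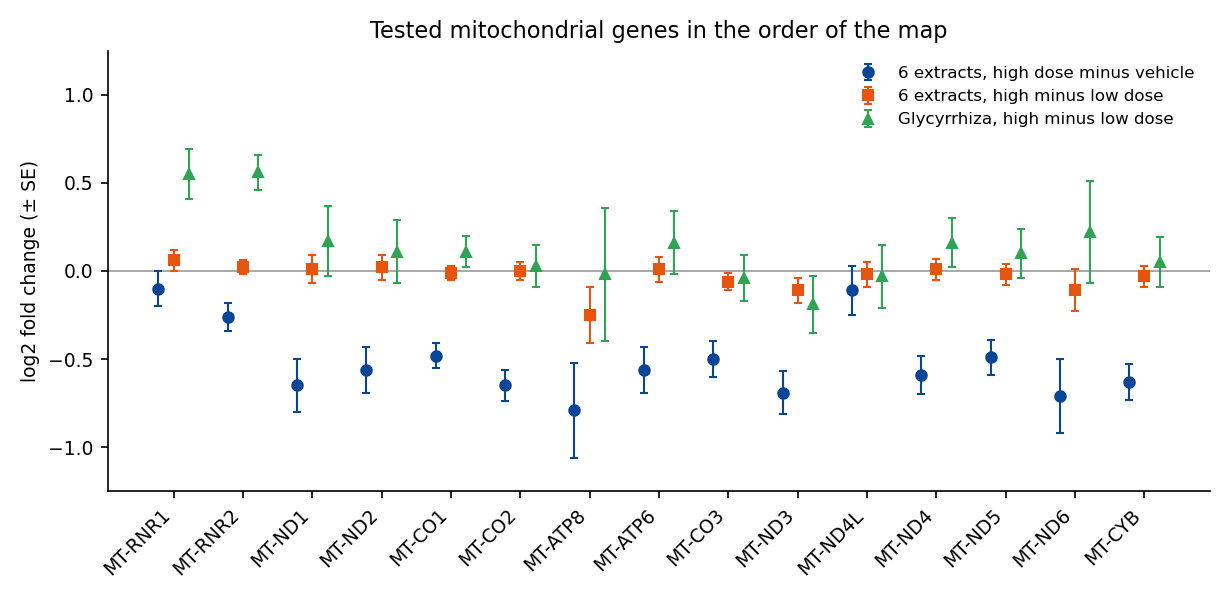
Log2 fold change with its SE for the 15 tested members in the order of the mitochondrial map, for 6 extracts pooled at high dose minus vehicle (circles), 6 extracts pooled at high minus low dose (squares) and Glycyrrhiza at high minus low dose (triangles). Against vehicle MT-RNR1 and MT-ND4L lie at -0.10 and -0.11 and the other members from -0.26 to -0.79; between doses of Glycyrrhiza only the 2 rRNAs passed the test.

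MT-ND6, the light strand mRNA, was also lower. Its level was 148, 179 and 282 CPM as the lowest, median and highest at the high dose, against 284, 287 and 359 CPM in vehicle. All 18 libraries lay below the vehicle libraries, by little at the upper end, and MT-ND6 fell by 0.71 ± 0.21 on the log2 scale (SE; edgeR adjusted p = 0.0077). Without vehicle library 3 the difference was -0.59 (adjusted p = 0.096).

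At the low dose the MT-ND6 difference was -0.60 ± 0.21 (edgeR adjusted p = 0.029), and the call was lost without vehicle library 1 (adjusted p = 0.053), 2 (0.058) or 3 (0.21). Without Poria low dose library 1 it was -0.75 (adjusted p = 0.00027). At the medium dose it was -0.71 ± 0.21 (adjusted p = 0.0093), and -0.59 (adjusted p = 0.11) without vehicle library 3. A transcript of the heavy strand runs antisense through MT-ND6. Whether the authors' counting used strand is not stated in any source used here, so reads of that transcript and of MT-ND6 cannot be told apart.

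As a share of the 13 mitochondrial mRNAs, which no scaling of libraries changes, MT-ND6 overlapped between treated and vehicle libraries. It made up 0.206% to 0.648% of mitochondrial mRNA counts, with a median of 0.291%, in the 54 treated libraries, against 0.319%, 0.345% and 0.373% in vehicle. Of the treated libraries 34 lay below the vehicle range, 11 within it and 9 above it. The means were 0.346% ± 0.0269 in vehicle (SD, n = 3) and 0.326% ± 0.0965, 0.306% ± 0.0580 and 0.310% ± 0.0617 at the low, medium and high dose (SD, n = 18 each). Angelica gave 0.264%, 0.344% and 0.202% at the low, medium and high dose.

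Low dose Poria library 1 stood apart from all others in MT-ATP8, MT-ND4L and MT-ND6. There MT-ND6 was at 0.648% and MT-ATP8 at 1.43% of mitochondrial mRNA counts, the highest of 60 libraries, against 0.206% and 0.287% and 0.319% and 0.458% in the 2 other Poria low dose libraries. In CPM it held 540 of MT-ND6, 1190 of MT-ATP8 and 2030 of MT-ND4L. Leaving it out changed the pooled low dose difference of MT-ATP8 from vehicle to -0.75 (edgeR adjusted p = 0.0063). Without it the MT-ND6 share over 59 libraries had an SD of 0.0573% in place of 0.0719%. MT-ATP8 and MT-ND6 also had the largest coefficients of variation of the 13 shares over 60 libraries, 36.3% and 22.9%, against 4.15% for MT-CYB, the lowest.

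**Figure D4:**
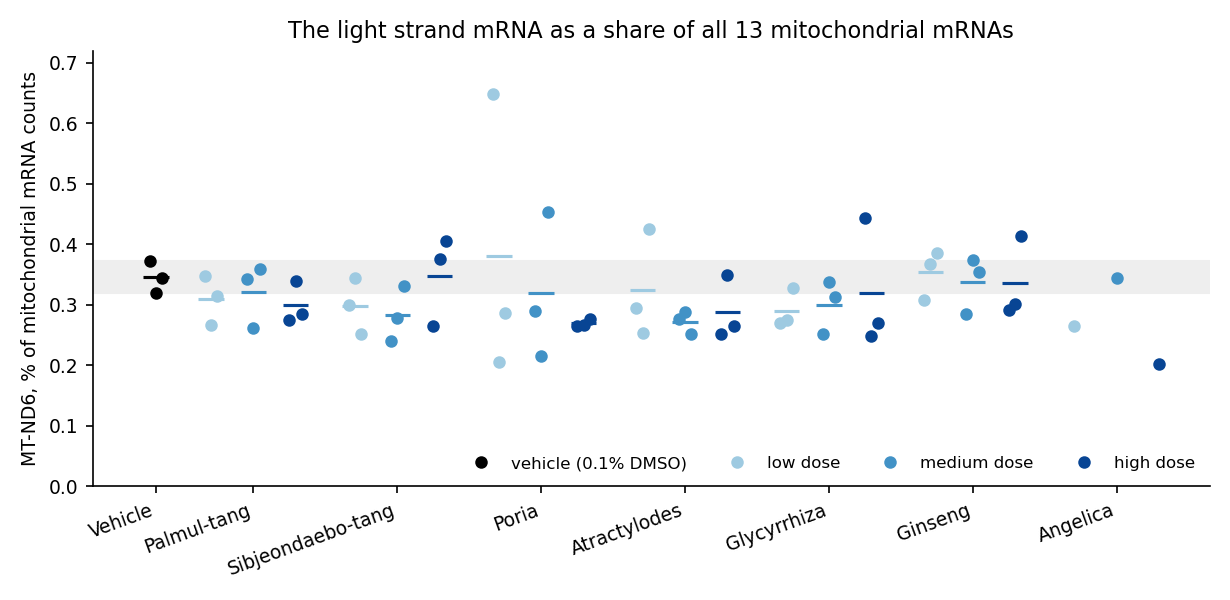
MT-ND6 as a percent of the counts of all 13 mitochondrial mRNAs in each library, with vehicle at the left and then each extract from low to high dose. The grey band is the vehicle range of 0.319% to 0.373%, short lines are means of 3 libraries, and Poria low dose library 1 lies highest at 0.648%.

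Extract by extract, the high dose gave the same direction for most members. Lower than vehicle were 12 of 15 with Palmul-tang, where 9.95% of all genes were called lower, 11 with Sibjeondaebo-tang (13.1% of all genes), 12 with Poria (11.6%), 10 with Atractylodes (10.6%), 10 with Glycyrrhiza (15.5%) and 7 with Ginseng (8.57%). None of the 15 was higher in these comparisons except MT-RNR1 with Glycyrrhiza, where 18.8% of all genes were higher. MT-CO1, MT-CO2, MT-CO3, MT-ND3, MT-ND4 and MT-CYB were called lower with all 6 extracts, which share the vehicle libraries. MT-ND6 was called with Palmul-tang (-0.88; edgeR adjusted p = 0.025) and Poria (-0.92; 0.016) and was at -0.77 (0.051) with Atractylodes, -0.64 (0.10) with Sibjeondaebo-tang, -0.57 (0.13) with Glycyrrhiza and -0.47 (0.29) with Ginseng. The MT-ND6 call was lost without vehicle library 3 (adjusted p = 0.12 with Palmul-tang and 0.082 with Poria), without Palmul-tang library 1 (0.086) or 3 (0.062) and without Poria library 3 (0.058). MT-ATP8 and MT-ND4L were called with none of them, though MT-ATP8 differed by -0.96 ± 0.38 with Atractylodes. Without vehicle library 3 the numbers of members called were 9, 7, 6, 3, 6 and 3 in the order of extracts just given. These numbers stand without the share of all genes called in that setting, so they are not set against a background. For Atractylodes 4 members were called without its library 1.

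Over the 18 treated groups of 3 libraries the median log2 difference of the 15 members from vehicle ran from -0.26 (medium dose Ginseng) to -0.76 (medium dose Atractylodes). All 15 members were below vehicle in 14 of these groups. The exceptions were low dose Poria and high dose Glycyrrhiza with 13 members below, and medium and low dose Ginseng with 14. MT-CO2 lay between -0.37 and -0.82 and MT-ND6 between -0.17 and -1.04 over the 18 groups. MT-RNR1 ran from -0.33 to 0.41 and MT-ND4L from -0.29 to 0.22. The 2 members above vehicle in low dose Poria were MT-ATP8 (0.20) and MT-ND4L (0.22). They rest on library 1, since libraries 2 and 3 held 173 and 285 CPM of MT-ATP8, against 338 to 549 CPM in vehicle, and 882 and 1160 CPM of MT-ND4L, against 1140 to 1200 CPM in vehicle. The value of -0.17 for MT-ND6 also comes from low dose Poria, and the next highest group was medium dose Ginseng at -0.29.

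The comparison of high with low dose uses no vehicle library. With 6 extracts pooled, 0 of 15 members passed the test, where 11.4% of all genes were called higher and 10.1% lower, together 21.4%. The number was also 0 with DESeq2, and 0 at an unadjusted p below 0.05, where 5220 of all 16445 genes passed. The member differences ran from -0.25 ± 0.16 for MT-ATP8 (SE; 95% interval -0.56 to 0.05) to 0.06 ± 0.06 for MT-RNR1. Without Poria low dose library 1 the difference of MT-ATP8 was -0.04 (edgeR adjusted p = 0.87), and the members ran from -0.09 (MT-ND3) to 0.10 (MT-RNR1). MT-CO2 differed by 0.00 ± 0.05 (95% interval -0.09 to 0.10), with 4720, 6290 and 7490 CPM as the lowest, median and highest at the high dose and 5180, 6310 and 7760 CPM at the low dose. MT-ND6 differed by -0.11 ± 0.12 (95% interval -0.34 to 0.13), or 0.05 without Poria low dose library 1.

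For single extracts, 0 of 15 members were called between high and low dose with Palmul-tang, Sibjeondaebo-tang, Poria, Atractylodes and Ginseng (edgeR), where 0.152%, 0.371%, 1.86%, 3.95% and 2.52% of all genes were called in either direction. The count was also 0 for each with DESeq2. At an unadjusted p below 0.05 it was 0 with Palmul-tang, Sibjeondaebo-tang, Atractylodes and Ginseng, where 1082, 1815, 2496 and 2243 of 16445 genes passed. It was 2 with Poria, where 2136 genes passed, a share near that of the members. Those 2 were MT-ATP8 (-0.99 ± 0.38) and MT-ND6 (-0.75 ± 0.29, or 0.18 without Poria low dose library 1). MT-ATP8 was at 298, 260 and 275 CPM at the high dose of Poria, against 1190, 173 and 285 CPM at the low dose, so that its difference rests on low dose library 1. Without Poria low dose library 2 the number called was 2, with MT-ND6 at -1.13 (adjusted p = 0.021). When the filter on low counts was dropped, members were called for Sibjeondaebo-tang, Poria, Atractylodes and Ginseng, as given in the closing section.

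With Glycyrrhiza 2 members were called between high and low dose. The 2 rRNAs rose and the 13 mRNAs did not pass the test. Of all 16445 tested genes 24.9% were called in either direction, and 2306 were higher, a share near that of the members. MT-RNR1 was at 2290, 2400 and 2780 CPM at 350 µg/mL, against 1650, 1750 and 1700 CPM at 14 µg/mL, a rise of 0.55 ± 0.14 on the log2 scale (SE; edgeR adjusted p = 0.0018). MT-RNR2 was at 15400, 17000 and 17300 CPM at the high dose, against 11300, 11400 and 11100 CPM at the low dose, a rise of 0.56 ± 0.10 (adjusted p = 4.1e-05). No high dose library overlapped a low dose library for either gene.

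The medium dose of 70 µg/mL lay nearer to the low dose. MT-RNR1 was at 1530, 2050 and 1860 CPM there, and MT-RNR2 at 10800, 13400 and 11600 CPM, below every high dose library. With each of the 6 libraries left out in turn, both calls between high and low dose held, with differences of 0.46 to 0.61 for MT-RNR1 and 0.52 to 0.60 for MT-RNR2. Of the mRNAs at the high dose, MT-ND3 differed by -0.19 ± 0.16, MT-CO2 by 0.03 ± 0.12 and MT-ND6 by 0.22 ± 0.29 (SE), none of them called.

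Against vehicle, MT-RNR1 rose by 0.41 ± 0.14 at the high dose of Glycyrrhiza (SE; edgeR adjusted p = 0.018). That call was lost without vehicle library 1 (0.34; adjusted p = 0.094) or Glycyrrhiza library 3 (0.32; adjusted p = 0.10). MT-RNR2 differed by 0.26 ± 0.10 (adjusted p = 0.052), with 0.35 (adjusted p = 0.017) without vehicle library 3, 0.31 (adjusted p = 0.04) without Glycyrrhiza library 1 and an adjusted p of 0.029 with a replicate block. In the same comparison 10 mRNAs fell, MT-ND3 most among those called, by 0.73 ± 0.16. The number called in either direction was 11, and 7 without Glycyrrhiza library 2.

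The rRNA share of all counts was 1.35%, 1.53% and 1.70% in vehicle, 1.31% ± 0.00955 at the low dose of Glycyrrhiza (SD, n = 3), 1.23%, 1.53% and 1.35% at the medium dose and 1.72%, 1.88% and 1.93% at the high dose. The highest library elsewhere was vehicle library 3, at 1.70%. Of mitochondrial counts the rRNAs took 21.8%, 23.8% and 22.1% at the high dose, against at most 20.6% in any other library. The summed level of 8 nuclear RNAs that mostly lack a poly(A) tail, in CPM of the library total, was 17.0 to 25.1 in the high dose Glycyrrhiza libraries, against 22.3 to 51.4 at the low dose. The sum was 15.8 to 18.9 at the medium dose and 21.3 to 29.1 in vehicle. With high dose Ginseng it was 16.1 to 73.3, and in the 45 other libraries 16.2 to 189. The mRNA share of all counts was 6.33% ± 0.420 at the high and 6.26% ± 0.513 at the low dose (SD, n = 3 each).

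**Figure D5:**
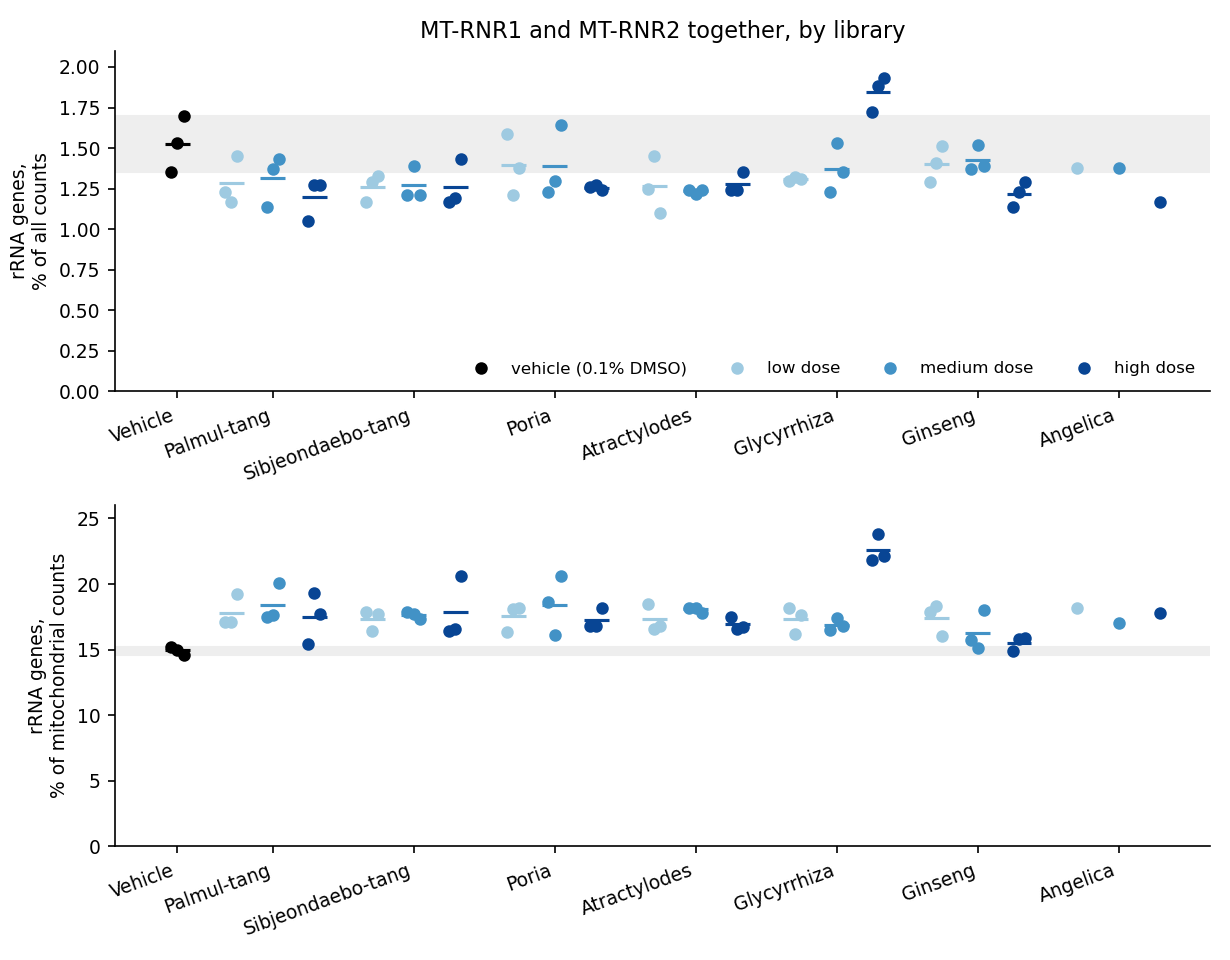
Counts on MT-RNR1 and MT-RNR2 together as a percent of all counts (upper panel) and of mitochondrial counts (lower panel) in each library, with vehicle at the left and then each extract from low to high dose. Grey bands are the vehicle ranges and short lines are means of 3 libraries; the 3 high dose Glycyrrhiza libraries lie above all others in both panels.

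Extracts of the same set were compared at the high dose without vehicle. For Palmul-tang against Sibjeondaebo-tang 0 of 15 members were called with edgeR, as were 0 of all genes (0%). The number of members was also 0 with DESeq2, and 0 at an unadjusted p below 0.05, where 913 of all 16445 genes passed. The differences ran from -0.25 (MT-ND6, 95% interval -0.82 to 0.33) to 0.10. For Poria against Atractylodes 0 members were called by the same tools and threshold, with differences of -0.20 to 0.18. Of all genes 0.979% were called with edgeR, and 1633 passed the unadjusted p. When the filter on low counts was dropped, members were called in both of these comparisons, as given in the closing section. For Glycyrrhiza against Ginseng, given at 350 and 500 µg/mL, the 2 rRNAs were higher with Glycyrrhiza and 0 members lower. Of all 16445 genes 23.3% were called in either direction, and 2189 were higher, a share near that of the members. MT-RNR1 differed by 0.62 ± 0.14 (SE; adjusted p = 0.00058) and MT-RNR2 by 0.64 ± 0.10, with 9970, 10800 and 11200 CPM of MT-RNR2 in the Ginseng libraries. The other members ran from -0.63 ± 0.38 (MT-ATP8) to 0.11 ± 0.09 (MT-CO1).

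Whether the dose difference of Glycyrrhiza departed from that of the other extracts was tested directly, in a comparison chosen after the values were seen. The high minus low difference less the mean of the other 5 extracts was 0.59 ± 0.15 for MT-RNR1 (SE; edgeR adjusted p = 0.0029) and 0.64 ± 0.11 for MT-RNR2 (adjusted p = 2.5e-05). No other member passed, and MT-ND6 was at 0.39 ± 0.32. Of all 16445 genes 21.5% passed in either direction, and 2029 were higher, a share near that of the members. This contrast shares its Glycyrrhiza libraries with the comparison between doses and is not independent of it.

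Some nuclear copies of mitochondrial genes were lower as well. RSEM shares reads between near-identical copies, and 7 tested members (MT-ND1, MT-ND2, MT-CO1, MT-CO2, MT-ATP6, MT-CO3 and MT-ND4) had a value that was not whole in at least 1 library, while the other 8, the rRNAs, MT-ATP8, MT-ND3, MT-ND4L, MT-ND5, MT-ND6 and MT-CYB, were whole in all 60. MTATP6P1 held a median of 22742 counts per library, MTND2P28 2972.5 and MTCO1P12 1035. MTCO3P12 lay near the floor, with 2 to 13 counts per library and a median of 7. At the high dose against vehicle 4 of 7 tested copies fell and 0 rose, where 15.8% of all genes were lower and 17.3% higher. MTATP6P1 fell by 0.65 ± 0.15, MTND2P28 by 0.70 ± 0.11, MTCO1P12 by 0.47 ± 0.07 and MTCO3P12 by 0.91 ± 0.31 on the log2 scale (SE), and between high and low dose 0 of 7 were called (edgeR). How much of these counts came from mitochondrial RNA was not tested.

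Nuclear genes that act on mitochondrial genes and RNA were counted against the share of all genes, 17.3% higher and 15.8% lower at the high dose against vehicle. For the transcription list the share called higher lay near that of all genes. Of 10 tested genes of mitochondrial transcription, 2 rose and 0 fell at the high dose against vehicle: POLRMT, the polymerase, by 0.29 ± 0.04 (47.7 ± 1.99 CPM, SD, n = 18, against 39.0 ± 0.291 CPM in vehicle, n = 3; edgeR adjusted p = 4.9e-07) and MRPL12, a ribosomal protein that also binds the polymerase, by 0.24. TFAM differed by 0.07 ± 0.04 (116 ± 6.62 against 110 ± 7.03 CPM; adjusted p = 0.15) and MTERF1, which binds the DNA just after the rRNA genes, by -0.07 ± 0.05. Of 25 genes of RNA processing, polyadenylation and decay 12 rose and 1 fell. FASTK, a mitochondrial RNA-binding protein whose loss lowers MT-ND6 mRNA, rose by 0.37 ± 0.04, while PDE12, a poly(A)-removing enzyme, fell by 0.13 ± 0.04. LRPPRC and SLIRP, partners that stabilize mitochondrial mRNAs, differed by 0.08 ± 0.03 and -0.14 ± 0.07 and were not called.

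Of 15 genes of mitochondrial DNA replication and nucleotide supply 6 rose and 0 fell, with POLG, the DNA polymerase, up by 0.35 ± 0.04. Of 9 biogenesis regulators only ESRRA passed, by 0.40, and of 15 genes of protein quality control 8 rose and 0 fell. For the nuclear partners of the mitochondrial subunits, set against 17.3% of all genes higher and 15.8% lower, 13 of 37 in complex I rose and 5 fell, 2 of 9 in complex III rose and 1 fell, 4 of 11 in complex IV rose and 1 fell, and 5 of 15 in complex V rose and 3 fell. Of 4 subunits of complex II, which has no mitochondrially encoded part, 2 rose. Of these, the shares in complex III and the lower shares in complexes I and V lay near those of all genes. The median log2 differences of these lists were between -0.01 and 0.12.

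Between high and low dose the same lists gave small differences, where 11.4% of all genes were higher and 10.1% lower. Of the transcription list 3 rose and 1 fell, namely MTERF2, a relative of MTERF1, which fell by 0.11 ± 0.03. Of the RNA processing list 5 rose and 0 fell, with SUPV3L1, the helicase of the RNA-degrading complex, up by 0.10 ± 0.02 (edgeR adjusted p = 0.00012). Of the replication list 3 rose and 1 fell, with TWNK, the DNA helicase, up by 0.10 ± 0.02. Of the biogenesis list 2 rose, PPARGC1B by 0.12 ± 0.03, and of the quality control list 6 rose and 1 fell, with HSPA9, a mitochondrial chaperone, up by 0.11 ± 0.01 (421 ± 12.4 against 391 ± 10.1 CPM, SD, n = 18 each). In complexes I, III, IV and V 0 subunits were called (edgeR adjusted p), and in complex II SDHC fell by 0.05 ± 0.02.

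The library type bears on RNAs without a poly(A) tail, such as tRNAs and in part rRNAs. Against vehicle 17.3% of all genes were higher and 15.8% lower at the high dose, and between doses 11.4% were higher and 10.1% lower. Of 8 tested nuclear RNAs that mostly lack a tail, 1 fell and 0 rose in each of these comparisons. The share that fell lay near that of all genes. The RNA called was the histone mRNA H2AC6, lower by 0.33 ± 0.07 against vehicle and 0.20 ± 0.03 between doses. The median log2 difference of the 8 was 0.33 against vehicle and -0.21 between doses, with -0.01 and 0 over all tested genes. The summed level of the 8 ran from 16.3 to 138 CPM over the high dose libraries, against 18.4 to 194 CPM at the low dose and 22.3 to 29.6 CPM in vehicle. Of the 13 epithelial markers 1 rose and 4 fell against vehicle, and 3 rose and 4 fell between doses, with CEACAM5 up by 0.48 ± 0.05. Their summed level was 11900 to 14200 CPM at the high dose, against 12600 to 14100 CPM at the low dose and 12800 to 13100 CPM in vehicle. The 2 tested fibroblast markers summed to 1.32 to 3.90 CPM at the high dose, against 2.29 to 2.80 CPM in vehicle, and 0 were called (edgeR). Of the 4 tested leukocyte markers 1 fell against vehicle, with sums of 1370 to 1630 CPM at the high dose against 1460 to 1500 CPM in vehicle. The part of these in the mitochondrial results was not tested.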

How the data were processed

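RNA of HT29 cells was sequenced as 100 bp pairs from strand-marking mRNA libraries, per the labels' protocols. The values are expected counts per gene that the authors deposited, made with RSEM 1.3.3 on hg38 after STAR 2.7.3a, Trim Galore 0.6.5 and FastQC 0.11.9, per the submitters' processing notes; they were rounded to whole counts. In each library 7.7% to 9.78% of values were not whole. A further 213 columns of the table belong to none of these samples and were not used. Identifiers were named from GENCODE release 29.

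Shares are percents of all counts. Tests used edgeR 4.0.16 (quasi-likelihood, R 4.3.3) on 57 libraries in 19 groups, with TMM factors (0.956 to 1.03), edgeR's filter on low counts (16445 genes kept), 38 residual degrees of freedom and Benjamini-Hochberg adjustment over all tested genes, called below 0.05. Pooled comparisons average the group means of 6 extracts. The code was tested on simulated data. The members and gene lists were chosen with earlier results of these data known. Per list, the rule named the called gene of at least 5 CPM with the largest fold change between pooled high and low dose; the other list genes named, POLRMT, TFAM, FASTK and POLG among them, were chosen after their values were seen, for their known roles. Same-numbered replicates of compared groups correlated at -0.11 to 0.19 in their deviations (median 0.01), and in 0 of 15 comparisons were all over 0.1, so numbers were not used as pairs. Alternatives were RLE factors, nuclear genes alone for scaling, no filter, DESeq2 1.42.0, a replicate block, the mitochondrial share as a covariate, the compared groups alone, and each library left out. Library totals were 19.31 to 29.62 M counts.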

Additional observations from a re-analysis of the deposited data

Results flagged for a closer look

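The dose difference of the rRNAs differed between extracts. For MT-RNR1 the high minus low dose difference of Glycyrrhiza less the mean of the other 5 extracts was 0.59 on the log2 scale (edgeR adjusted p = 0.0029), and for MT-RNR2 it was 0.64 (adjusted p = 2.5e-05). A test of the difference itself drew attention to both, in a comparison chosen after the values were seen. MT-RNR1 and MT-RNR2 were higher in 3 of 3 high dose Glycyrrhiza libraries than in any low dose one. Its cause was not tested.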

How the results depend on the processing

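With RLE factors, nuclear genes alone for scaling, DESeq2 and a replicate block, the number of members called stayed within 1.5 times in all 20 comparisons; with the replicate block it changed only for Glycyrrhiza against vehicle, 12 in place of 11. Adding the mitochondrial share as a covariate, which is itself the sum of the members, left 2, 3 and 3 members called for the pooled low, medium and high dose against vehicle and gave 1 for high against low dose. Against vehicle it gave 1 for Palmul-tang and for Poria, 4 for Sibjeondaebo-tang and for Glycyrrhiza and 2 for Atractylodes and for Ginseng, with 4 for Glycyrrhiza between doses and 5 for Glycyrrhiza against Ginseng. Under it these log2 differences turned positive. At the pooled high dose they were 0.33 for MT-RNR1, 0.13 for MT-RNR2, 0.23 for MT-ND1, 0.26 for MT-ND2, 0.36 for MT-ATP8, 0.16 for MT-ATP6, 0.05 for MT-CO3, 0.43 for MT-ND4L, 0.03 for MT-ND4, 0.07 for MT-ND5 and 0.12 for MT-ND6. At the medium dose they were 0.10 for MT-RNR2, 0.19 for MT-ND1, 0.21 for MT-ND2, 0.35 for MT-ATP8, 0.09 for MT-ATP6, 0.08 for MT-CO3, 0.01 for MT-ND3, 0.40 for MT-ND4L, 0.05 for MT-ND5 and 0.07 for MT-ND6. At the low dose they were 0.09 for MT-RNR2, 0.16 for MT-ND1, 0.18 for MT-ND2, 0.09 for MT-ATP6, 0.08 for MT-CO3, 0.41 for MT-ND4L, 0.06 for MT-ND5 and 0.16 for MT-ND6. For MT-RNR2 they were 0.04 with Palmul-tang, 0.09 with Sibjeondaebo-tang and 0.08 with Poria and with Atractylodes, and for MT-ND6 0.13 with Palmul-tang.

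Without the filter on low counts 34296 genes were tested. Then 5 members were called between pooled high and low dose and 14 for Ginseng against vehicle. Of all genes 3109 and 2841 were called there. Between doses 3 members were called for Sibjeondaebo-tang, 9 for Poria, 3 for Atractylodes, 8 for Glycyrrhiza and 2 for Ginseng. In the same order 341, 519, 641, 3743 and 461 of all genes were called. Unfiltered, 3 members were called for Palmul-tang against Sibjeondaebo-tang and 3 for Poria against Atractylodes. For Glycyrrhiza 7 were called against Ginseng and 9 less the other extracts. In these comparisons 148, 293, 3517 and 3223 of all genes were called. The cause of these changes was not tested. The compared groups alone gave 4 for Glycyrrhiza against Ginseng. Without the 2 rRNA genes the mitochondrial share was 8.71% in vehicle and 6.27%, 6.27% and 6.13% at the low, medium and high dose, and MT-ND6 was 0.294% of all member counts in vehicle.

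With each library left out, members called against vehicle ran from 9 to 13, 8 to 13 and 9 to 13 at the pooled low, medium and high dose, 9 to 12 for Palmul-tang, 7 to 11 for Sibjeondaebo-tang, 6 to 12 for Poria, 3 to 12 for Atractylodes, 6 to 11 for Glycyrrhiza and 3 to 7 for Ginseng. Between doses they ran from 0 to 2 for Poria, were 2 for Glycyrrhiza and 0 for the other extracts and the pool. They were 2 for Glycyrrhiza against Ginseng and less the other extracts, and 0 for the other pairs. Counts with a library left out or with the covariate are given without the share of all genes called in the same setting. Whether a change in them is particular to the members was not tested. The vehicle share ran from 9.54% to 10.9%. The 3 vehicle libraries limit every comparison with them, and the few counts of tRNAs allow no comparison.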
